A study of Homo sapiens with 6 samples.

Results

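Messenger RNA levels of the D-type cyclins, the kinases and inhibitors that act with them, RB1, cyclin E1 and MYC were examined in A2780 cells, an established human ovarian cancer line. Control cells had the lentiviral vector pGIPZ-NC, and knockdown cells had shUSP39, a lentiviral hairpin against the spliceosome protein USP39. Each group had 3 RNA-seq libraries, described as biological triplicates. The study's methods select infected cells with puromycin, so both groups are infected and selected, and which of the study's hairpins the shUSP39 libraries carried is not given in the labels. The genes were taken as the rows whose symbol equalled one of 10 listed names. Of these, 8 had counts among 16571 gene symbols (CCND1, CCND2, CCND3, CDK4, CDKN1B, CDKN2C, RB1 and MYC), and CDK6 and CCNE1 were not analysed here. The list was chosen by values of this same comparison between shUSP39 and pGIPZ-NC, so the differences below are given as a description, with no p-value for any of the 8 genes.

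D-type cyclins are the cyclins that growth signals induce in G1. They bind CDK4 or CDK6, and the active kinase phosphorylates the retinoblastoma protein RB1, which then releases E2F transcription factors that switch on genes of DNA synthesis. Cyclin E1 acts with CDK2 in the next step. The INK4 proteins, of which CDKN2C encodes p18, bind CDK4 and CDK6 directly, and the CIP/KIP proteins, of which CDKN1B encodes p27, bind cyclin-kinase complexes. MYC is a transcription factor that binds the E-box as a dimer with MAX and drives genes of growth and ribosome production, CDK4 and CCND2 among its known targets.

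Total counts lay between 28294819 and 32939264 per library. The shUSP39 libraries 2 and 3 stood apart, with 15446 and 14890 genes holding at least 1 count, against 12662 to 12819 in the other 4 libraries. The fold change of each of the 8 genes is therefore given below also without these 2 libraries. That leaves 1 shUSP39 library and less power, so a difference that no longer passes the test there need not depend on these 2 libraries. USP39 was not analysed here, so the knockdown itself has no check in these values. Of 12 ovarian and epithelial markers, 9 had counts. PAX8, EPCAM and MSLN, defining markers of serous and epithelial ovarian carcinoma, had at most 6, 6 and 1 counts per library, and KRT7 had at most 16. The other epithelial markers moved in opposite directions. KRT18 rose from 22.4 ± 1.57 to 32.9 ± 3.09 CPM (counts per 1000000 counts, on library sizes scaled with TMM factors), and KRT19 fell from 24.4 ± 2.27 to 1.96 ± 0.250 CPM (SD, n = 3 each). KRT8 had 26 to 37 counts per library in pGIPZ-NC and 0 to 3 in shUSP39, and LHX9 had 16 to 42 and 5 to 13. MUC16 had 1 to 5 counts in pGIPZ-NC and 6, 150 and 71 in the shUSP39 libraries 1, 2 and 3, so its higher counts lay in the 2 libraries that stood apart. The summed level of these 9 genes was 47.7 to 50.9 CPM in pGIPZ-NC and 34.7 to 41.6 CPM in shUSP39. For 8 markers of leucocytes, endothelium and fibroblasts the sum was 5.42 to 6.81 CPM in pGIPZ-NC and 0.781 to 1.39 CPM in shUSP39. PTPRC, CD14, CD3E, CD79A, PECAM1 and CDH5 had at most 13 counts per library, and DCN and LUM, which were lower in shUSP39, held most of that sum in pGIPZ-NC. The part of these marker levels in the results was not tested.

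The promoter of CDK4 is shown because it holds 3 copies of the E-box CACGTG, the letters that MYC and MAX bind. It is the RefSeq window from 250 bases before to 50 bases after the gene's start, at chr12:57752261-57752560 of GRCh38.p14, minus strand, with the E-boxes in capitals. The first bases of the 3 E-boxes lie at −216, −196 and −101 from the start.
CDK4: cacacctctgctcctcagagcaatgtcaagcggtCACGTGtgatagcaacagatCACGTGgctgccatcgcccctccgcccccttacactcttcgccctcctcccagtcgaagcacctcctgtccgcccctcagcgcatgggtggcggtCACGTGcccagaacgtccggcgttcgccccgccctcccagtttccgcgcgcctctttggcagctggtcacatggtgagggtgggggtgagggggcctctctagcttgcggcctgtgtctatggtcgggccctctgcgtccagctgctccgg

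RefSeq's promoter table had 12 windows for 7 of the 10 listed genes, some with several starts, namely CCND3, CCNE1, CDK4, CDK6, CDKN1B, CDKN2C and RB1. An E-box was found in 4 of these 12 windows. They were the window of CDK4, one of CDK6 and 2 of the 3 windows of CDKN2C. Stretches of 30 bases around the other 3 E-boxes are printed for comparison, with the E-box in capitals. The CDK6 stretch lies at chr7:92836526-92836555 (minus strand), and the CDKN2C stretches at chr1:50960513-50960542 and chr1:50970164-50970193 (plus strand), all in GRCh38.p14.
CDK6: cgaggccgcggaCACGTGcggagagccgac
CDKN2C, upstream start: gattgtgcacctCACGTGgttagtcacaca
CDKN2C, downstream start: ttgctgaataatCACGTGtgaatcgagggg

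The E-box reads the same on both strands, so 1 search covered both. It was present in 2548 of 35116 RefSeq promoter windows of the same length (7.26%), and 33 windows (0.0940%) held at least 3 copies. The core of the E2F site (TTCCCGC, or GCGGGAA on the other strand), which can share at most 1 base with an E-box, was found in 2301 windows (6.55%). Among the 12 windows above only the middle start of CDKN2C held it. A match describes the letters in the window and is not evidence of binding.

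The 3 D-type cyclins differed from each other in the comparison of shUSP39 with pGIPZ-NC. CCND2 was 5.27-fold lower in shUSP39, CCND1 was within 5% of its control level, and CCND3 had low counts in all 6 libraries. CCND2 (chr12:4378937-4414519, plus strand, GRCh37, 5 exons) encodes cyclin D2. It stood at 671, 661 and 639 CPM in the pGIPZ-NC libraries and at 128, 122 and 123 CPM in the shUSP39 libraries. All shUSP39 libraries were far below the lowest control library. The means were 657 ± 16.1 and 125 ± 3.19 CPM (SD, n = 3 each), a log2 fold change of −2.40 (SE 0.04). Without the shUSP39 libraries 2 and 3 it was −2.36 (SE 0.06). In bulk RNA, fewer cells with a message and less message per cell cannot be told apart. Ordered from the most negative fold change, CCND2 was at place 103 of 10695 tested genes.

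CCND1 (chr11:69455924-69469242, plus strand, 5 exons) encodes cyclin D1. It stood at 997, 977 and 974 CPM in pGIPZ-NC and at 1049, 1013 and 1017 CPM in shUSP39. The groups did not overlap, yet the gap between the highest control and the lowest shUSP39 library was smaller than the range within either group. The means were 983 ± 12.1 and 1026 ± 19.6 CPM (n = 3 each), a difference of 4.43% and a log2 fold change of 0.06 (SE 0.03). It was 0.09 (SE 0.04) without the shUSP39 libraries 2 and 3. It was 0.11 with upper-quartile scaling and 0.09 with library sizes alone, and CCND1 passed the threshold under both.

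CCND3 (chr6:41902672-42018095, minus strand, 5 exons) encodes cyclin D3. It had 20, 18 and 25 counts in pGIPZ-NC and 42, 33 and 38 counts in shUSP39. The groups did not overlap, but no value rests on more than 42 counts. As reads shared between transcripts may be missing, these counts may not stand for the whole level of CCND3. The means were 0.689 ± 0.174 and 1.23 ± 0.128 CPM (n = 3 each), and the log2 fold change was 0.83 (SE 0.41), which was 0.69 to 1.04 when each library was left out in turn and 0.93 (SE 0.61) without the shUSP39 libraries 2 and 3. The table held 3 transcripts of CCND3, of 15 that RefSeq lists, and NM_001287427.1 held 84.3% ± 4.45 of the counts in pGIPZ-NC and 88.8% ± 4.46 in shUSP39.

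**Figure D1:**
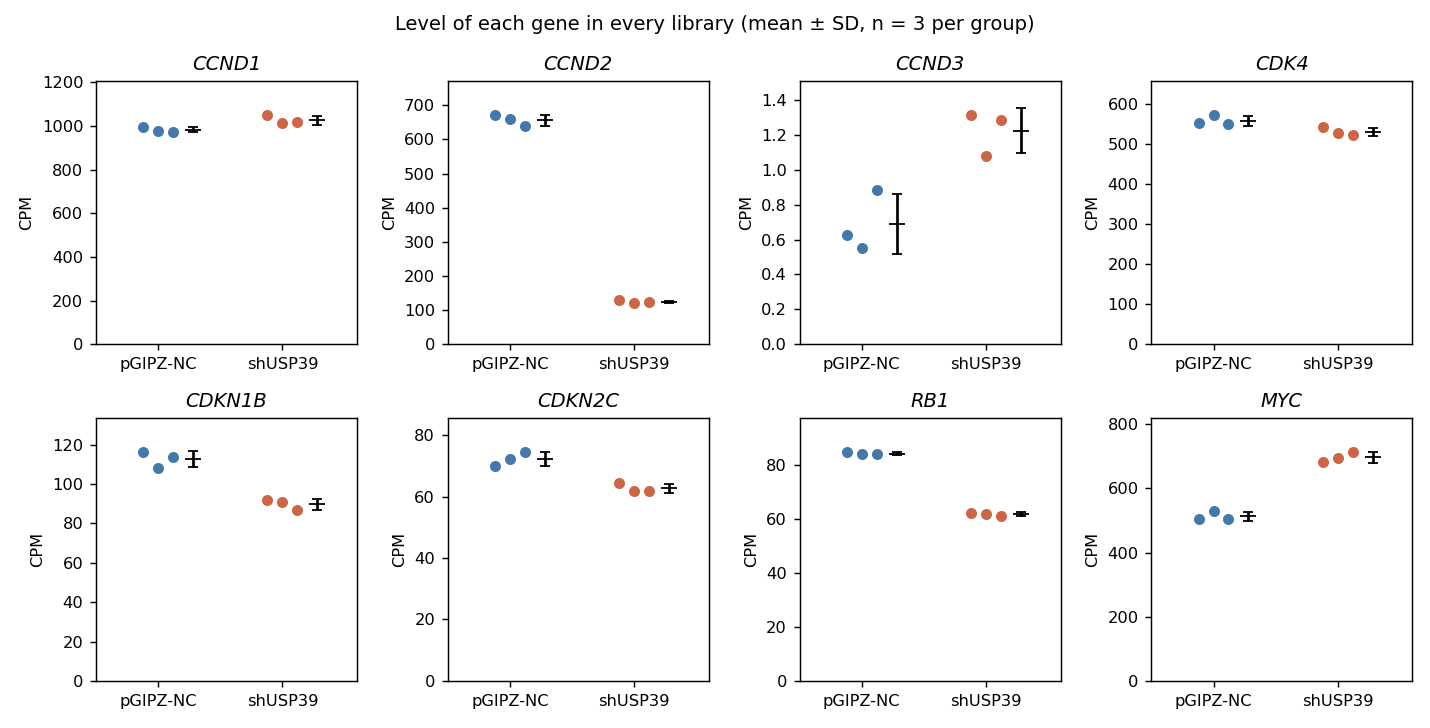
Level of each of the 8 measured genes in CPM (y axis, from 0, own scale per gene) in the 3 pGIPZ-NC and 3 shUSP39 libraries (points), with the mean and SD beside them. CCND2 drops from 657 to 125 CPM and MYC goes from 513 to 697 CPM, while CCND1 and CDK4 stay near their control means.

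CDK4 was the one catalytic partner of the D-type cyclins that was measured. CDK4 (chr12:58141510-58149796, minus strand, 8 exons) stood at 552, 572 and 549 CPM in pGIPZ-NC and at 542, 527 and 523 CPM in shUSP39. The shUSP39 libraries lay just below the controls, with 542 against a lowest control of 549 CPM. The means were 558 ± 12.2 and 531 ± 10.5 CPM (n = 3 each), −0.07 apart on the log2 scale (SE 0.03). That difference was −0.04 (SE 0.05) without the shUSP39 libraries 2 and 3 and −0.03 with upper-quartile scaling.

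Both inhibitors among the 8 genes were lower in shUSP39. CDKN1B (chr12:12838432-12875303, plus strand, 3 exons), which encodes p27, stood at 116, 108 and 114 CPM in pGIPZ-NC and at 91.9, 90.8 and 86.7 CPM in shUSP39. The highest shUSP39 library was below the lowest control library by more than either group's own range. The means were 113 ± 4.23 and 89.8 ± 2.75 CPM (n = 3 each), a log2 fold change of −0.33 (SE 0.05). It was −0.29 (SE 0.08) without the shUSP39 libraries 2 and 3.

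CDKN2C (chr1:51426417-51440306, plus strand, 2 exons), which encodes p18, stood at 70.1, 72.3 and 74.5 CPM in pGIPZ-NC and at 64.3, 61.9 and 61.8 CPM in shUSP39. The groups did not overlap. The means were 72.3 ± 2.19 and 62.7 ± 1.39 CPM (n = 3 each), a log2 fold change of −0.21 (SE 0.06). Without the shUSP39 libraries 2 and 3 it was −0.17 (SE 0.09) and no longer passed the threshold. Of its counts, NM_001262.2 held 95.8% ± 0.595 in pGIPZ-NC and 96.0% ± 1.80 in shUSP39, so the share of the 2 transcripts differed by less than the spread between libraries.

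RB1 (chr13:48877880-49173572, plus strand, 27 exons), the substrate of the cyclin D kinases, had the tightest replicates of the 8 genes. It stood at 84.7, 83.8 and 83.9 CPM in pGIPZ-NC and at 62.3, 61.8 and 60.9 CPM in shUSP39. The libraries of each group lay within 2 CPM of each other, and the groups were far apart by comparison. The means were 84.1 ± 0.481 and 61.6 ± 0.722 CPM (n = 3 each), a difference of −26.7%. On the log2 scale this was −0.45 (SE 0.06), and −0.43 (SE 0.08) without the shUSP39 libraries 2 and 3. RB1 was counted on 1 transcript, of 5 that RefSeq lists.

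MYC (chr8:128747680-128755197, plus strand, 3 exons) was the one of the 5 genes past the threshold that was higher in shUSP39. It stood at 504, 529 and 505 CPM in pGIPZ-NC and at 682, 696 and 714 CPM in shUSP39. Every shUSP39 library was above every control library by a wide margin. The means were 513 ± 14.1 and 697 ± 16.0 CPM (n = 3 each), a 1.36-fold difference and a log2 fold change of 0.44 (SE 0.03). It was 0.41 (SE 0.05) without the shUSP39 libraries 2 and 3.

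All 8 genes passed the filter on low counts. At an adjusted p under 0.05 (edgeR's quasi-likelihood test, Benjamini-Hochberg over all genes tested), 5 of the 8 passed, against 33.6% of the 10695 genes tested. MYC was the 1 higher gene, against 16.1% of all genes tested, and CCND2, CDKN1B, CDKN2C and RB1 were the 4 lower genes, against 17.5%. Only CCND2 was also beyond 2-fold, against 6.81% of all genes. The libraries of the groups did not overlap in any of the 8 (3 higher, 5 lower in shUSP39), against 44.2% of all genes. Since the list was chosen from this comparison, nothing is read from these counts. The median log2 fold change was −0.14 over the 8 genes and 0.01 over all genes tested, whose median absolute log2 fold change was 0.22. CCND1, CDK4 and CDKN2C were below that absolute median, and the other 5 genes were above it.

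**Figure D2:**
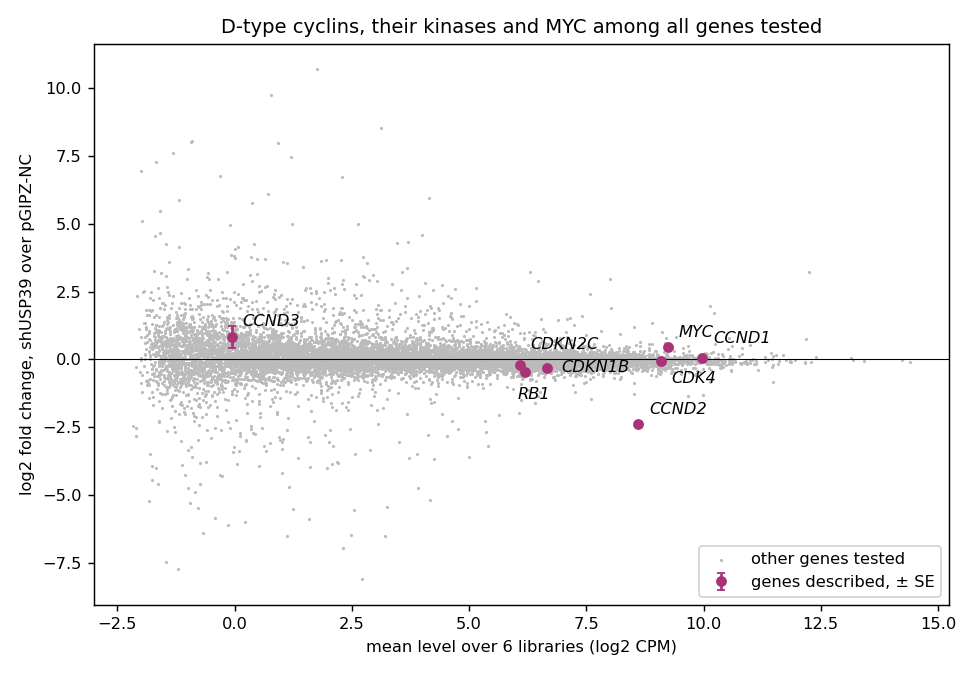
Log2 fold change of shUSP39 over pGIPZ-NC (y axis) against the mean level over the 6 libraries in log2 CPM (x axis), for the 8 genes (large points, bars show the SE) among all 10695 tested genes (grey). CCND2 at −2.40 lies outside the band of genes of its level, CCND3 lies in the wide band of genes near 1 CPM, and the other 6 genes lie within 0.5 of 0.

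Levels of different genes were compared only per length, as CPM per 1000 bases (kb) of the canonical GENCODE transcript. In pGIPZ-NC the order was CDK4 with 299 ± 6.55, CCND1 with 232 ± 2.87, MYC with 138 ± 3.79 and CCND2 with 101 ± 2.48 CPM per kb. CDKN2C with 72.7 ± 2.21, CDKN1B with 46.7 ± 1.75 and RB1 with 17.6 ± 0.101 CPM per kb followed. In shUSP39 CCND2 held 19.2 ± 0.491 CPM per kb and so came below CDKN2C with 63.0 ± 1.40 and CDKN1B with 37.3 ± 1.14 CPM per kb. The library values of neighbours in these orders did not overlap. The lengths are those of GENCODE's transcripts and may differ from the RefSeq transcripts counted, so steps between neighbours such as MYC and CCND2 carry an error that the SD does not include. CCND3 has 15 listed transcripts and was left out of the order. RB1, CDKN2C and MYC, with 5, 3 and 2 listed, were kept, and reads shared between transcripts may be missing from their values.

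Ratios of counts within a library do not depend on how libraries are scaled, and they separated the genes in the same way. The ratio of CCND2 to CCND1 counts was 0.673, 0.676 and 0.656 in pGIPZ-NC and 0.122, 0.121 and 0.121 in shUSP39. Per length, CCND2 made up 30.4% ± 0.345 of CCND1 and CCND2 together in pGIPZ-NC and 7.34% ± 0.0447 in shUSP39 (n = 3 each). Cyclin D1 was thus the more abundant of these 2 messages in both groups.

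The ratio of CDK4 to CCND1 counts was 0.568 ± 0.0158 in pGIPZ-NC and 0.517 ± 0.00292 in shUSP39. For RB1 over CDK4 it was 0.151 ± 0.00375 and 0.116 ± 0.00124, and for CDKN1B over CDK4 it was 0.202 ± 0.0116 and 0.169 ± 0.00327. The message of the substrate and that of p27 were thus lower relative to the kinase message too. MYC over CCND1 was 0.522 ± 0.0181 and 0.680 ± 0.0267 (n = 3 each). In all of these ratios the libraries of the groups did not overlap.

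**Figure D3:**
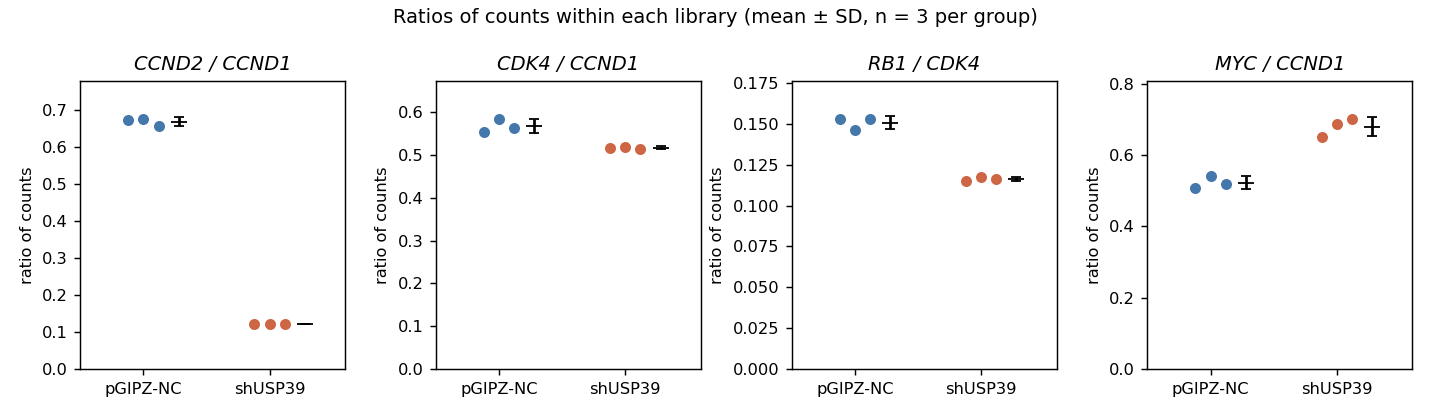
Ratios of read counts between pairs of genes within each library (y axis, from 0, own scale per ratio) for 3 pGIPZ-NC and 3 shUSP39 libraries (points), with the mean and SD. CCND2 over CCND1 goes from 0.668 to 0.121 and MYC over CCND1 from 0.522 to 0.680.

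The genes whose levels followed those of the cyclins and MYC most closely were found by Pearson's r of log2 CPM over the 6 libraries, among genes of at least 5 CPM. These values are a description, since the 6 points fall into the 2 groups and any gene that differs between them scores high. For CCND2 they were PARP4 (r 0.9997) and GLDC (r 0.9995), the latter being the glycine decarboxylase of the glycine cleavage system, and 705 genes had an r over 0.95. For MYC they were CTSD (r 0.9993), which encodes the lysosomal protease cathepsin D, and FSCN1 (r 0.9991), which encodes the actin-bundling protein fascin, and 567 genes had an r over 0.95. For CCND1 they were CHML (r 0.990), a Rab escort protein, and TAF7 (r 0.987), a subunit of TFIID, and for CCND3 EVA1B (r 0.995) and the ETS factor ETV4 (r 0.992). Of these, FSCN1 had the largest fold change, from 147 ± 9.25 CPM in pGIPZ-NC to 303 ± 17.4 CPM in shUSP39.

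The rest of the pathway was read from 7 lists of 117 genes in all, written by role with earlier results of these data known. Of these, 102 had counts and 91 were tested. In the same test, 6 of the 91 rose (6.59%, against 16.1% of all genes tested) and 25 fell (27.5%, against 17.5%), and the median log2 fold change was −0.04. The split moved with the scaling. With upper-quartile scaling, which took the share of higher genes among all that passed from 48.0% to 58.0%, 11 pathway genes were higher and 20 lower. Without the shUSP39 libraries 2 and 3, fewer genes passed both here and among all genes tested, so nothing is read from the split there.

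Among 11 other cyclins, kinases and phosphatases of G1 and the G1/S transition, 7 were tested and 1 passed, against 33.6% of all genes tested. MNAT1, a subunit of the CDK-activating kinase, fell by 0.27 on the log2 scale (SE 0.09, edgeR adjusted p = 0.0214). Its adjusted p was 0.095 without pGIPZ-NC library 1, 0.0995 without shUSP39 library 2, 0.183 without the shUSP39 libraries 2 and 3 and 0.0566 with upper-quartile scaling. The list's median log2 fold change was −0.08. CCNE2, CCNA2 and CDK2, the cyclins and kinase of the following step, were among the 6 tested genes that did not pass.

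The other CDK inhibitors had low counts in these libraries. CDKN1A (p21) and CDKN1C (p57) had at most 8 counts in any library and were not tested. Of the 3 tested, CDKN2A, which encodes p16 and ARF, fell from 12.7 ± 1.74 to 8.13 ± 1.24 CPM (log2 fold change −0.64, SE 0.14, edgeR adjusted p = 0.000746). Its adjusted p was 0.0502 without the shUSP39 libraries 2 and 3. CDKN2B (p15) and CDKN2D (p19) did not pass, with log2 fold changes of 0.18 and 0.07 (edgeR adjusted p = 0.808 and 0.890), and their direction turned when single libraries were left out. The median of the 3 was 0.07. CDKN1A, CDKN1C and CDKN2A have 10, 5 and 5 transcripts in RefSeq, and genes with 5 or more had a median of 41.1 counts per library in this table, against 82.4 for genes with 1.

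Of 19 pocket proteins, E2F factors and MuvB subunits, which act next to RB1, 15 were tested and 2 fell, against 17.5% of all genes tested. TFDP1, the dimer partner of E2F factors, fell from 99.0 ± 7.18 to 79.2 ± 10.8 CPM (log2 fold change −0.32, SE 0.08, edgeR adjusted p = 0.00460). The shUSP39 libraries stood at 66.8, 83.9 and 86.9 CPM, all below the lowest control of 92.4 CPM. The log2 fold change of TFDP1 was −0.22 without shUSP39 library 1, the lowest, and −0.57 without libraries 2 and 3, and it passed in both. E2F8, a repressor E2F, fell from 8.29 ± 1.80 to 5.58 ± 0.320 CPM (log2 fold change −0.57, SE 0.17, edgeR adjusted p = 0.00887), and its adjusted p was 0.0888 without pGIPZ-NC library 3. Without the shUSP39 libraries 2 and 3 the adjusted p of E2F8 was 0.0918. The other E2F genes that were tested did not pass. The activators E2F1, E2F2 and E2F3 had log2 fold changes of −0.07, −0.10 and 0.17 (edgeR adjusted p = 0.366, 0.0572 and 0.151). For E2F4 and E2F7 they were 0.07 and −0.10 (edgeR adjusted p = 0.173 and 0.164). Some of these passed under an alternative. E2F1 passed without the shUSP39 libraries 2 and 3 (−0.25, edgeR adjusted p = 0.00477), E2F2 with DESeq2's Wald test (adjusted p = 0.0466), and E2F4 with upper-quartile scaling (0.11, edgeR adjusted p = 0.0223). E2F5 and E2F6 had at most 15 and 5 counts per library and were not tested. The list's median log2 fold change was 0.03.

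Of 24 genes of S phase that E2F factors are known to switch on, 19 were tested, 10 fell and 1 rose. Of the 8 tested genes that did not pass, MCM4, MCM7, CDC45, EZH2, POLA1 and PCNA, named for their low counts, had 3 to 140 counts per library. Their SEs were 0.20 to 0.69, so a change in them could be missed. TK1 and SLBP, with 873 to 2570 counts per library, did not pass either. Of all genes tested, 17.5% were lower and 16.1% higher, and the list's median log2 fold change was −0.17. TYMS, the thymidylate synthase, fell from 387 ± 7.71 to 297 ± 6.33 CPM (log2 fold change −0.38, SE 0.04, edgeR adjusted p = 2.82e-09). MCM6, a subunit of the replicative helicase, fell from 636 ± 14.2 to 513 ± 9.42 CPM (log2 fold change −0.31, SE 0.03, edgeR adjusted p = 2.64e-08).

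MSH6, of the mismatch repair complex, fell by 0.63 on the log2 scale (SE 0.12, edgeR adjusted p = 9.21e-05). RRM1, the large subunit of ribonucleotide reductase, fell by 0.27 (SE 0.06, edgeR adjusted p = 0.000336). All fell by less than 2-fold. The 1 gene that rose, named after its value was seen, was the replication licensing gene CDC6 (log2 fold change 0.17, SE 0.04, edgeR adjusted p = 0.00105). The count of 10 lower genes was 7 with upper-quartile scaling and 6 without the shUSP39 libraries 2 and 3. The E2F core was present in 14 of 36 promoter windows of this list (38.9%), against 6.55% of all windows. As the list was written from known E2F targets and some genes have several windows, nothing is read from this share.

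Of 18 genes of the turnover of cyclins, p27 and MYC by ubiquitin ligases and their opponents, 14 were tested, 6 fell and 2 rose. Among all genes tested, 17.5% were lower and 16.1% higher. The list's median log2 fold change was −0.07. DDB1, an adaptor of CUL4 ligases, fell by 0.18 on the log2 scale (SE 0.03, edgeR adjusted p = 1.16e-05), and CUL1, the scaffold of SCF ligases, fell by 0.17 (SE 0.03, edgeR adjusted p = 0.000366). UBAC1, a subunit of the KPC ligase that acts on p27, fell by 0.18 (SE 0.04, edgeR adjusted p = 0.00202).

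SKP1, the adaptor that joins F-box proteins to CUL1, rose from 0.602 ± 0.276 to 2.64 ± 0.358 CPM (log2 fold change 2.11, SE 0.36, edgeR adjusted p = 3.07e-05), and it was the one gene of the 7 lists past the threshold and beyond 2-fold. Its level was 8 to 93 counts per library. Reads shared between transcripts may be missing from these counts, so they may not stand for the whole level of SKP1. USP2, a deubiquitinase of cyclin D1 named after its value was seen, was the other gene that rose, by 0.67 on the log2 scale (SE 0.20, edgeR adjusted p = 0.00916). The list had 3 lower genes and 1 higher gene without the shUSP39 libraries 2 and 3, and 1 higher gene without pGIPZ-NC library 2.

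Of 12 genes of the MYC, MXD and MLX network, 9 were tested and 1 rose, against 16.1% of all genes tested. The list's median log2 fold change was 0.11. MYCL, a paralog of MYC, rose from 1.66 ± 0.397 to 3.10 ± 0.772 CPM (log2 fold change 0.90, SE 0.27, edgeR adjusted p = 0.0112). Its adjusted p was 0.0578 without pGIPZ-NC library 1 and 0.0906 without shUSP39 library 1. MAX, the dimer partner of MYC, had 13 to 33 counts per library and a log2 fold change of −0.14 (edgeR adjusted p = 0.868), whose direction turned when single libraries were left out.

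Of 28 genes that MYC is known to activate, 24 were tested, 5 fell and 2 rose, with a median log2 fold change of 0.05 beside 0.01 over all genes. ODC1, NOP16, POLR1B, RCC1 and LDHA, named for their low counts, had 8 to 92 counts per library. They did not pass, but their SEs of 0.27 to 0.55 mean that a change could be missed. Their fold changes are part of the median. The ribosome assembly factor BOP1 fell by 0.23 on the log2 scale (SE 0.04, edgeR adjusted p = 1.68e-05). CAD, which starts pyrimidine synthesis, fell by 0.51 (SE 0.09, edgeR adjusted p = 5.01e-05). PA2G4, an ErbB3-binding protein of the nucleolus, fell by 0.16 (SE 0.03, edgeR adjusted p = 0.000168). The other 2 that fell, named after their values were seen, were NPM1 and NCL, abundant proteins of the nucleolus, with log2 fold changes of −0.16 and −0.10 (edgeR adjusted p = 0.00330 and 0.00249).

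SRM, the spermidine synthase, rose by 0.16 on the log2 scale (SE 0.04, edgeR adjusted p = 0.00109). RRP9, of the U3 small nucleolar particle and also named after its value was seen, rose by 0.13 (SE 0.04, edgeR adjusted p = 0.0169). In either direction 7 of the 24 tested genes passed, against 33.6% of all genes tested. With upper-quartile scaling 5 of the 24 were higher and 4 lower. Without the shUSP39 libraries 2 and 3, 1 was higher and 2 lower, with PA2G4 and SRM no longer past the threshold (edgeR adjusted p = 0.0887 and 0.309), and 1 was higher when pGIPZ-NC library 1 or shUSP39 library 1 was left out. An E-box was present in 15 of 32 promoter windows of this list (46.9%), against 7.26% of all windows. This list was likewise written from known MYC targets, some with several windows, so nothing is read from the share.

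**Figure D4:**
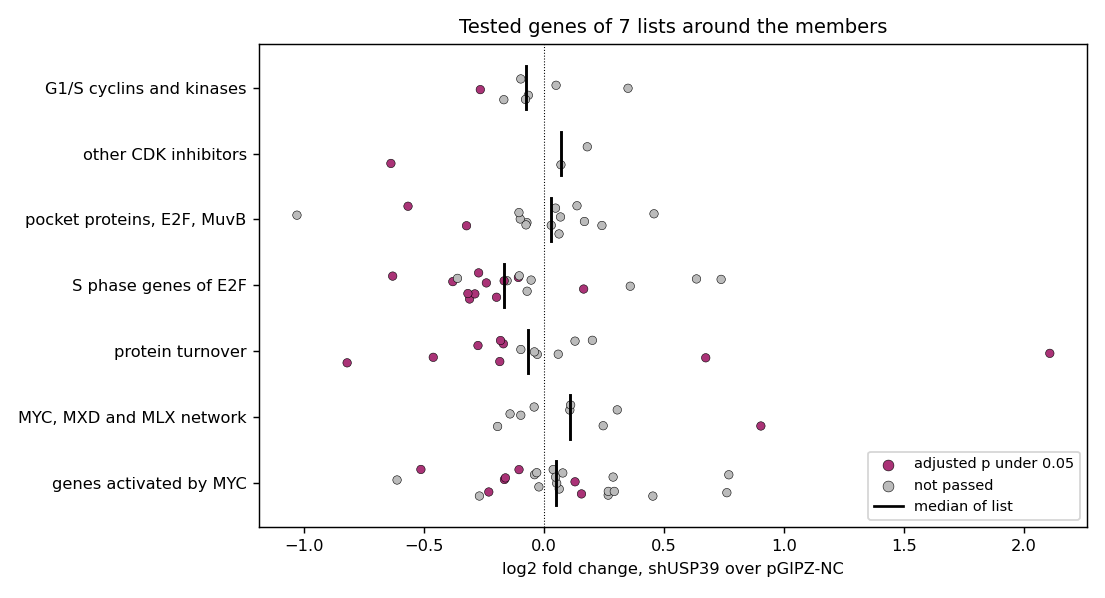
Log2 fold change of shUSP39 over pGIPZ-NC (x axis) for the 91 tested genes of the 7 pathway lists (rows, points spread vertically to be seen), with genes past the threshold in dark colour and the median of each list as a black bar. The S phase genes of E2F have the lowest median (−0.17), and SKP1 at 2.11 is the one coloured point beyond 2-fold. SKP1 had 8 to 93 counts per library.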

How the data were processed

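RNA-seq of 3 pGIPZ-NC and 3 shUSP39 libraries of A2780 cells was analysed, with groups and replicate numbers from the labels. The authors deposited 1 table of raw read counts per RefSeq transcript, with a column per library. The submitters' processing notes name HISAT2, Cufflinks and the build hg19 without roles. The counter, the annotation and the use of strand are not given in the sources used here, and reads shared between transcripts may be missing from the counts. The authors' own columns of group means, fold, p-value and q-value were not used.

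Counts were summed per symbol, from 21368 rows to 16571 symbols, after 46 of 47 symbols in the form of dates were replaced through the transcript's accession. Genes were tested with edgeR 4.0.16 in R 4.3.3 (filterByExpr, TMM factors, robust quasi-likelihood fit, group as the only term, all 6 libraries in 1 fit) and adjusted by Benjamini-Hochberg over the 10695 genes that passed the filter. The threshold was an adjusted p under 0.05, and genes also beyond 2-fold were counted apart. The standard error was the absolute log2 fold change divided by the square root of F. The fit was first tested on simulated data. Levels are CPM on TMM-scaled library sizes, and the log2 CPM used for the likeness of profiles had a prior count of 2. P-values set the difference between the groups against the spread between these libraries. Whether that spread includes differences between separately infected lines or between hairpins is not known.

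Gene coordinates are those of GENCODE release 44 mapped to GRCh37, and promoter windows are RefSeq's on GRCh38.p14. Of the 10 listed genes, CCND1, CCND2 and MYC had no window in that table. Proteins were not used here.

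The genes and all lists were chosen with earlier results of these data known. Named genes were the 10 listed genes, and from each list those past the threshold with the 4 smallest adjusted p-values. Every CDK inhibitor, every E2F gene and MAX were named whether past it or not, and the 2 genes most like each of CCND1, CCND2, CCND3 and MYC by Pearson's r over the 6 libraries. Other genes are marked as named afterwards or for their low counts. CCNE2, CCNA2, CDK2, TK1, SLBP and the cell type markers are named for context.

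Total counts were 28294819 to 32939264 per library, and low counts limit precision for genes such as CCND3. Libraries of the same group differed by more than sampling noise (lowest chi-square over its degrees of freedom 4.63), so they were not copies of 1 library. Each counted as 1 sample, since they are described as biological triplicates, which the chi-square cannot show. As alternatives, libraries were scaled by size factors of DESeq2 1.42.0, by upper quartiles or by total alone. The filter was dropped or set to 10 counts in all libraries, and the test was replaced by DESeq2's Wald test or by voom of limma 3.58.1. A replicate block was added, libraries were left out one at a time, and genes were represented by their highest transcript. Leaving out the shUSP39 libraries 2 and 3 together was added after seeing the data.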

Additional observations from a re-analysis of the deposited data

How the results depend on the processing

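The 8 genes kept their direction in all 128 values from 16 alternatives, with 123 on the same side of the threshold. The number past the threshold was 5 to 5 when each library was left out and 4 to 7 otherwise. CCND2 lay between −2.42 and −2.35 and MYC between 0.41 and 0.49 throughout. The pathway genes higher in shUSP39 numbered 4 to 6 and those lower 21 to 23 when each library was left out. They were 11 higher with upper-quartile scaling, which adds to every fold change and moved the median of all genes from 0.01 to 0.05, and 14 lower without the shUSP39 libraries 2 and 3, where 1 shUSP39 library was assumed to vary like the controls. There MNAT1, CDKN2A, E2F8, PA2G4 and SRM no longer passed and E2F1 did. E2F2 passed with the block (edgeR adjusted p = 0.0181) and with DESeq2's Wald test, and E2F4 with upper-quartile scaling. Libraries of the same number did not deviate together (correlations of 0.0688, 0.00477 and 0.0216). With the replicate block 7 of the 8 genes passed, CCND1 and CDK4 being the 2 added, and 7 pathway genes were higher and 27 lower, with 3981 of all genes past the threshold against 3598. Direction turned, with no call, for MAX (0.0565 with the highest transcript, 0.4629 without the shUSP39 libraries 2 and 3, and −0.59 to 0.25 when each library was left out). It also turned for CDKN2B (−0.18 to 0.54), CDKN2D (−0.15 to 0.26) and E2F1 (−0.12 to 0.01) when each library was left out. Without shUSP39 library 1, E2F1 was 0.0085. MYCL had an adjusted p of 0.0561 with the highest transcript. Apart from what these alternatives change by construction, the cause was not tested. CCND3, MAX and SKP1 had fewer than 100 counts in every library, which limits their precision. Shared reads may be missing from these counts, and the part of depth in them was not tested.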
